A study of Mus musculus with 6 samples.

Results

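The NRF2 antioxidant response was examined through 9 genes, selected by symbol from the 16579 genes of the deposited table for their place in the pathway, with earlier results of these data known. They were *Nfe2l2*, which encodes NRF2, *Keap1*, which encodes its repressor, and 7 target genes, *Txnrd1*, *Srxn1*, *Gclc*, *Gclm*, *Slc7a11*, *Hmox1* and *Nqo1*. All 9 were among the 12256 genes that passed the filter on low counts and were tested. The study sequenced RNA of megakaryocytes (MKs) obtained by flow sorting of marrow from mice aged 3 months, with 3 libraries labelled Becn1f/f and 3 labelled Becn1f/f;Pf4-iCre. Both genotypes carry floxed *Becn1* alleles, and the labels name no treatment. In the second genotype, iCre recombinase under *Pf4* (platelet factor 4) regulatory sequence is meant to delete *Becn1* in the megakaryocytic lineage, so cells outside that lineage in the sort would keep the gene. The sources used here give neither the sex nor the number of mice behind each library, so *P* values measure the spread between these libraries.

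NRF2 is a transcription factor that is made continuously and degraded continuously. In resting cells KEAP1 hands it to a CUL3 ubiquitin ligase, and oxidants or electrophiles that modify cysteines of KEAP1 let NRF2 accumulate, pair with a small MAF protein and bind antioxidant response elements beside its target genes. The autophagy receptor p62, encoded by *Sqstm1*, also binds KEAP1, and p62 that is not cleared by autophagy can sequester KEAP1 and release NRF2. Beclin 1, the product of *Becn1*, acts in autophagosome formation, and p62 is degraded by autophagy. In marrow, *Hmox1* is best known from macrophages that take up red cells and break down heme.

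Sequences beside the start sites are shown because they are the letters that NRF2 and its relatives read. RefSeq windows on GRCm38.p6, from 250 bases before to 50 bases after an annotated start, were found for 7 of the 9 genes (9 windows) and none for *Hmox1* and *Gclc*. The core of the antioxidant response element, TGACNNNGC, was searched on both strands and lay in 4 of the 9 windows, those of *Nfe2l2*, *Gclm*, *Srxn1* and 1 of 3 for *Txnrd1*. Over all 32851 windows of the same length, 12.4% held it. The related core TGANTCA, read by AP-1 and by NF-E2, lay at 2 places in the *Srxn1* window and in no other of the 9, against 7.81% of all windows. A stretch upstream of the start is printed for each of these 4 genes, 5′ to 3′ on the strand of the gene, with the matched letters in capitals.
*Nfe2l2*, chr2:75704865-75704913, minus strand, match from 240 bases before the start: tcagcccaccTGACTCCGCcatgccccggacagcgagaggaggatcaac
*Gclm*, chr3:122245393-122245461, plus strand, match from 134 bases before the start, reverse complement: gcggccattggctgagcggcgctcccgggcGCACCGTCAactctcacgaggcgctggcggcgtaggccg
*Txnrd1*, chr10:82859084-82859152, plus strand, match from 92 bases before the start, reverse complement: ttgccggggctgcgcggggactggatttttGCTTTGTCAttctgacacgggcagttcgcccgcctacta
*Srxn1*, chr2:152105449-152105515, plus strand, TGANTCA from 45 bases before the start: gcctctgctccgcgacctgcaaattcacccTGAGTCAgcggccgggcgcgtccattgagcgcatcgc
Not printed are the TGACNNNGC match of *Srxn1*, 29 bases after the start, and its other TGANTCA match, 102 bases before it. A match is a run of letters in a window and not a measured binding site. Sequence outside the windows was not searched, so a window without a match does not show that a gene lacks the element.

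Total estimated counts lay between 16467560 and 17156728 per library. The targeted gene *Becn1* was at 118 ± 9.37 CPM (counts scaled to the effective library size, SD, n = 3) in Becn1f/f libraries and at 107 ± 2.74 (SD, n = 3) in libraries labelled Becn1f/f;Pf4-iCre, or 90.3% of the Becn1f/f level in the fit. This difference did not pass the test (adjusted p = 0.94, edgeR), and the gene sum does not separate floxed from other exons. Of 16 MK and platelet markers, 14 were tested and all 16 had counts. Their summed level was 287 to 397 CPM, against 9535 to 17389 CPM for 14 neutrophil markers and 801 to 1058 CPM for 14 macrophage markers, so transcripts of other marrow cells were plentiful in sorted samples labelled as MKs. In such bulk RNA, fewer cells of a type and less RNA per cell cannot be told apart.

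The 9 genes spanned a wide range of levels. On the FPKM scale, which allows for transcript length, *Nfe2l2* was highest, with a mean of 70.7 ± 14.8 FPKM (SD, n = 6) and a range of 52.7 to 91.8. *Txnrd1*, thioredoxin reductase of the cytosol, followed at 59.6 ± 7.53 FPKM (SD, n = 6) and overlapped with *Nfe2l2*. Every library had more *Txnrd1* (lowest value 51.6 FPKM) than any library had *Hmox1*, the heme-degrading oxygenase (27.5 to 45.1 FPKM). *Keap1* lay between 17.7 and 28.0 FPKM. *Slc7a11*, the cystine carrier that feeds glutathione synthesis, ranged from 13.1 to 33.0 FPKM, *Gclm* from 14.7 to 20.3 and *Gclc* from 13.4 to 18.1, and these neighbors in the order overlapped with each other and with *Keap1*. The place of *Gclm* depended on the transcript length used, since as CPM per kb of an annotated transcript its mean was 5.38 and that of *Gclc* 14.6. *Srxn1*, the sulfiredoxin that repairs overoxidized peroxiredoxins, was lower at 4.57 ± 0.897 FPKM (SD, n = 6), and *Nqo1*, the quinone reductase often used as the standard NRF2 target, was lowest at 1.90 ± 0.406 FPKM (SD, n = 6). The ranges of *Srxn1* and *Nqo1* overlapped neither with each other nor with those of the other 7 genes. *Nqo1* rested on 31 to 50 estimated counts per library, the fewest of the 9 genes.

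**Figure D1:**
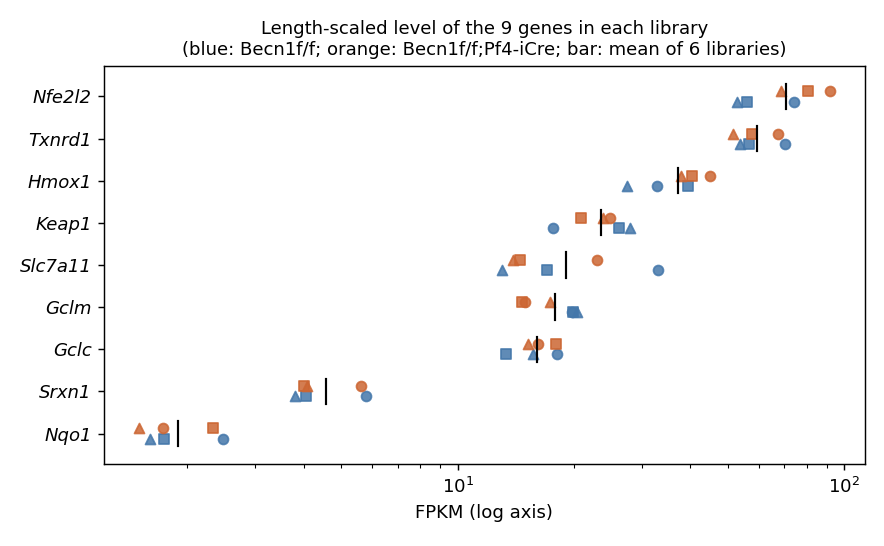
FPKM of the 9 genes (log axis), with Becn1f/f libraries in blue, libraries labelled Becn1f/f;Pf4-iCre in orange, symbols for library numbers 1 (circle), 2 (square) and 3 (triangle), and a bar at the mean of the 6 libraries. *Nfe2l2* and *Txnrd1* lie above 51 FPKM in every library and *Nqo1* is the lowest gene, reaching 2.48 FPKM in its highest library.

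To determine whether the pathway differed with genotype, the 9 genes were read from the edgeR fit over all tested genes. Differentially expressed genes (DEGs) were defined by a fold change of at least 1.5 and an unadjusted *P* under 0.05. None of the 9 was a DEG, against 2.30% of all tested genes (282 of 12256), and DESeq2 gave 0 of 9 as well. At an unadjusted *P* under 0.05 without a fold threshold, 2 of the 9 passed in edgeR, *Nfe2l2* upward and *Gclm* downward, against 6.31% of all tested genes (3.92% upward and 2.39% downward). No member had an adjusted p under 0.05 (the lowest was 0.71, edgeR with Benjamini-Hochberg adjustment), against 0.0408% of all tested genes. The estimate was above 0 for 4 genes and below 0 for 5. Their median log2 fold change was -0.01, beside -0.02 over all tested genes.

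*Nfe2l2* was at 167, 121 and 111 CPM in Becn1f/f libraries 1, 2 and 3, and at 207, 174 and 149 CPM in libraries 1, 2 and 3 labelled Becn1f/f;Pf4-iCre. All 3 of the latter were above Becn1f/f libraries 2 and 3, but Becn1f/f library 1 was above the lowest of them, so the genotypes overlapped. The mean was 133 ± 29.6 CPM (SD, n = 3) against 177 ± 29.1 CPM (SD, n = 3). The log2 fold change was 0.41 (standard error 0.18, 95% interval 0.02 to 0.80), with an unadjusted *P* of 0.039 and an adjusted p of 0.76 in the edgeR test. An exact two-sided permutation test gave p = 0.2, where 3 libraries against 3 cannot give less than 0.1. The estimate was above 0 in each of the 6 fits that left out a single library (0.28 to 0.61), but its *P* varied. Without Becn1f/f library 1 it was 0.61 and passed the DEG thresholds (edgeR *P* of 0.0019, adjusted p of 0.20). Leaving out Becn1f/f library 2 or 3 gave 0.35 or 0.30, with an edgeR *P* of 0.12 or 0.14. Leaving out library 1, 2 or 3 labelled Becn1f/f;Pf4-iCre gave 0.28, 0.42 or 0.52, with an edgeR *P* of 0.18, 0.066 or 0.024.

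*Keap1* showed no such order. It was at 56.7, 79.8 and 82.8 CPM in Becn1f/f libraries 1, 2 and 3, and at 79.8, 64.2 and 73.4 CPM in the libraries labelled Becn1f/f;Pf4-iCre. The lowest value of all 6 was in Becn1f/f library 1 and the genotypes overlapped fully, with a log2 fold change of -0.01 (95% interval -0.37 to 0.34). The FPKM ratio of *Nfe2l2* to *Keap1* was 4.21 in Becn1f/f library 1 and 2.14 and 1.88 in Becn1f/f libraries 2 and 3, against 3.71, 3.86 and 2.90 in the libraries labelled Becn1f/f;Pf4-iCre. The ratios overlapped between the genotypes through Becn1f/f library 1 (exact two-sided permutation test of the log2 ratio, p = 0.4). This ratio and that of *Gclc* to *Gclm*, given with the glutathione genes, were chosen after the values were seen, and the p adjusted over the 2 ratios is 0.4 for each. By rule, the genes most like *Nfe2l2* over the 6 libraries were sought. They included *Crebbp* and *Esam*, with Pearson correlations of 0.987 and 0.986 of log2 CPM, and 106 of the tested genes exceeded 0.9, which is a description of 6 points that share their genotypes.

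Glutamate-cysteine ligase, the first enzyme of glutathione synthesis, joins a catalytic subunit (*Gclc*) to a modifier subunit (*Gclm*). *Gclm* was at 34.4, 33.2 and 32.9 CPM in Becn1f/f libraries 1, 2 and 3 and at 25.8, 24.7 and 29.3 CPM in libraries 1, 2 and 3 labelled Becn1f/f;Pf4-iCre. It was the only member whose genotypes did not overlap, as 10.6% of all tested genes did not. The log2 fold change was -0.33 (standard error 0.13, 95% interval -0.63 to -0.04), or 79.4% of the Becn1f/f level, with an unadjusted *P* of 0.029 and an adjusted p of 0.71 in edgeR. The exact permutation p was 0.1, the smallest possible. Without Becn1f/f library 3 or library 3 labelled Becn1f/f;Pf4-iCre its edgeR *P* stayed under 0.05 (0.045 and 0.030), and without any of the other 4 libraries in turn it was 0.056 to 0.12. *Gclc* was at 57.7, 41.0 and 46.9 CPM and at 51.7, 54.5 and 47.1 CPM in the same order. The genotypes of *Gclc* overlapped, with a log2 fold change of 0.07 (95% interval -0.26 to 0.40). The FPKM ratio of *Gclc* to *Gclm*, whose overall level depends on that length, was 0.918, 0.672 and 0.769 in Becn1f/f libraries and 1.08, 1.22 and 0.876 in libraries labelled Becn1f/f;Pf4-iCre. Only library 3 of the latter fell within the Becn1f/f range (exact two-sided permutation test of the log2 ratio, p = 0.2). Annotated exons of *Gclm* and *Keap1* overlap those of other genes, none of which is in the deposited table.

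*Hmox1* was at 42.3, 49.2 and 33.5 CPM in Becn1f/f libraries 1, 2 and 3 and at 59.0, 50.2 and 47.3 CPM in libraries 1, 2 and 3 labelled Becn1f/f;Pf4-iCre. The genotypes overlapped by a single library, since Becn1f/f library 2 was above library 3 of the other genotype. The log2 fold change was 0.32 (standard error 0.16, 95% interval -0.03 to 0.68), with an unadjusted *P* of 0.071 and an adjusted p of 0.84 in edgeR. The 6 fits on 5 libraries each gave 0.19 to 0.46, and *P* was under 0.05 in 1 of them (0.022, without Becn1f/f library 2). Macrophage markers were higher in the same direction. Of 13 tested, 12 were higher and 5 were DEGs, all upward, against 1.36% of all tested genes, with a median log2 fold change of 0.45. Their summed level was 801 to 842 CPM in Becn1f/f libraries and 865 to 1058 CPM in libraries labelled Becn1f/f;Pf4-iCre. It was highest in library 1 of the latter, which was also highest for *Hmox1* and where *Csf1r* alone gave 588 CPM. The part of macrophage RNA in the *Hmox1* values was not tested. The macrophage DEGs were *Mrc1*, *Cd163*, *C1qc*, *Siglec1* and *Maf*, whose log2 fold changes were 1.26, 0.70, 0.80, 1.0 and 0.70 in that order (edgeR, adjusted p from 0.057 to 0.78). Among libraries labelled Becn1f/f;Pf4-iCre, *Siglec1* was highest in library 1, *Mrc1* and *Maf* in library 2, and *Cd163* and *C1qc* in library 3, the lowest of them for *Hmox1*. The genes most like *Hmox1* over the 6 libraries were *Ngfr*, *Ube2l6* and *Fuom*, with Pearson correlations of 0.992, 0.988 and 0.986. *Ngfr* and *Fuom* had means of only 1.97 and 1.76 CPM. As 94 of the tested genes exceeded 0.9 over these 6 points, the correlations are a description only.

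*Txnrd1* was at 223, 173 and 161 CPM in Becn1f/f libraries 1, 2 and 3 and at 215, 176 and 159 CPM in libraries 1, 2 and 3 labelled Becn1f/f;Pf4-iCre. The spread within each genotype far exceeded the difference between them, which was -0.02 on the log2 scale (95% interval -0.37 to 0.34). *Srxn1* was likewise highest in library 1 of each genotype, at 14.9, 10.01 and 9.20 CPM against 14.5, 9.89 and 10.2 CPM, with a log2 fold change of 0.02 (95% interval -0.47 to 0.51). *Slc7a11* varied most, at 303, 146 and 109 CPM against 210, 126 and 121 CPM. Its highest library was 2.77 times its lowest, and its log2 fold change of -0.29 had a 95% interval from -1.0 to 0.42. Without Becn1f/f library 1 the sign of the *Slc7a11* estimate reversed, to 0.26. *Nqo1* was at 3.14, 2.13 and 1.92 CPM against 2.22, 2.83 and 1.84 CPM, a log2 fold change of -0.05 (95% interval -0.69 to 0.58). For *Keap1*, *Gclc*, *Txnrd1* and *Srxn1*, the 95% interval lay within a fold change of 1.5 in both directions, whereas for the other 5 genes it did not. Of all 12256 tested genes, 7459 had such an interval.

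**Figure D2:**
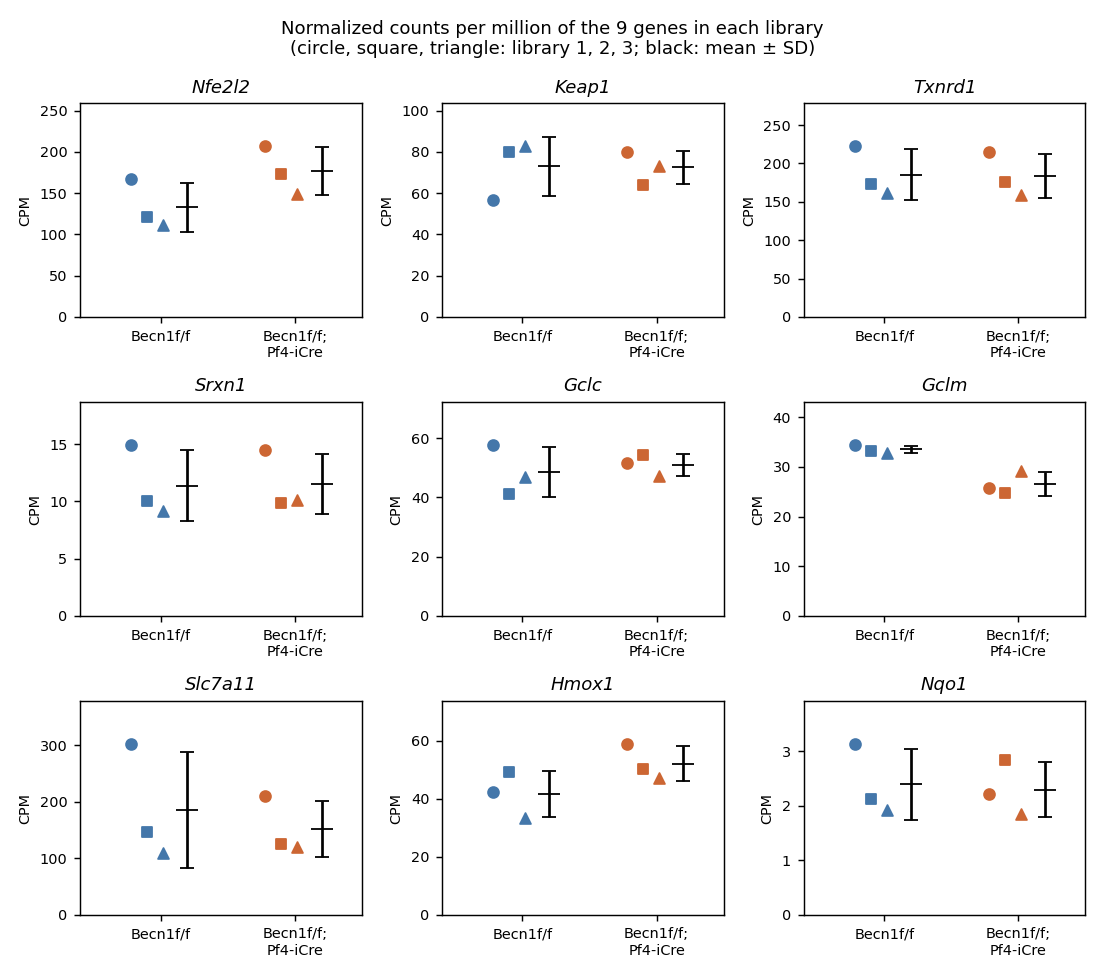
CPM of each of the 9 genes in every library (axes start at 0), with circle, square and triangle for libraries 1, 2 and 3 of a genotype and the mean ± SD in black. *Gclm* alone separates the genotypes, at 32.9 to 34.4 CPM against 24.7 to 29.3 CPM, and Becn1f/f library 1 (blue circle) is the highest of 6 for 6 of the 7 targets.

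**Figure D3:**
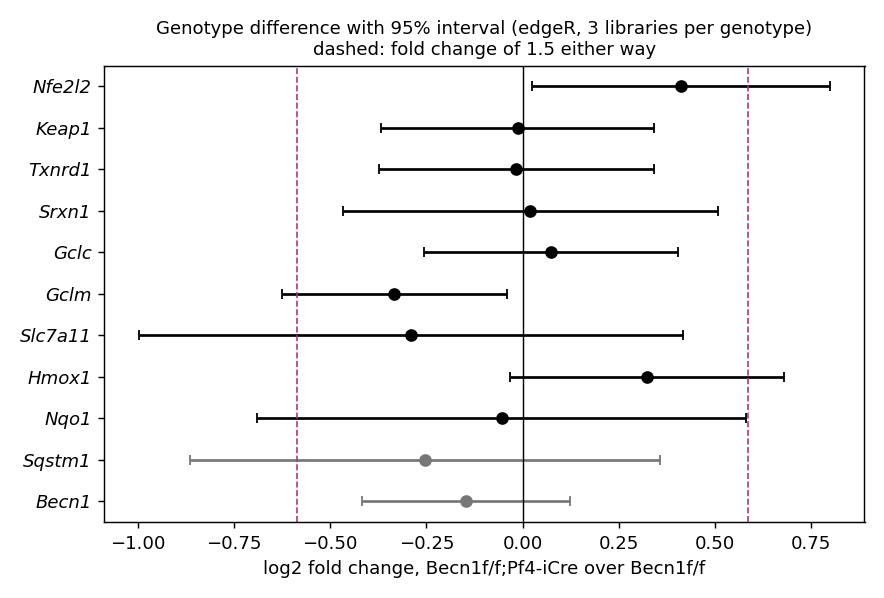
log2 fold change (libraries labelled Becn1f/f;Pf4-iCre over Becn1f/f) with its 95% interval for the 9 genes in black and for *Sqstm1* and *Becn1* in grey, with dashed lines at a fold change of 1.5. The intervals of *Nfe2l2* (0.02 to 0.80) and *Gclm* (-0.63 to -0.04) leave out 0, and every point lies inside the dashed lines.

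Across the targets, Becn1f/f library 1 had the highest level of the 6 for 6 of the 7 targets, all but *Hmox1*, while 20.2% of all tested genes were highest in that library. The median over the 7 targets of the log2 level relative to the mean of the 6 libraries was 0.27 in Becn1f/f library 1 and 0.22 in library 1 labelled Becn1f/f;Pf4-iCre. It was -0.14 and -0.29 in Becn1f/f libraries 2 and 3, and -0.07 and -0.17 in libraries 2 and 3 of the other genotype. *Sqstm1*, the gene of p62, had the same order within each genotype, with 662, 383 and 278 CPM in Becn1f/f libraries 1, 2 and 3 and 480, 348 and 281 CPM in libraries 1, 2 and 3 labelled Becn1f/f;Pf4-iCre. Library 1 was the highest of its genotype for *Sqstm1*, *Slc7a11*, *Srxn1*, *Txnrd1* and *Nfe2l2* in both genotypes. The log2 fold change of *Sqstm1* was -0.25 (95% interval -0.87 to 0.36, adjusted p = 0.96 in edgeR). This is RNA and does not measure p62 protein, which the study reported as raised in platelets after *Becn1* deletion. Exons of *Sqstm1* overlap antisense exons of *Mrnip*, whose reads cannot be told apart where counting ignored strand. Becn1f/f library 1 also had the highest summed level of neutrophil markers (17389 CPM) and of erythroid markers (982 CPM). Library 1 labelled Becn1f/f;Pf4-iCre, the second highest by the median of the targets, had the lowest of all 6 for both (9535 and 512 CPM). Other lists ran differently. The summed MK and platelet markers were highest in library 1 of each genotype (397 and 379 CPM), as were the macrophage markers (842 and 1058 CPM). B cell sums in these libraries were 198 and 149 CPM, and T and NK cell sums 73.2 and 48.1 CPM. The part of cell make-up in the target levels was not tested.

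**Figure D4:**
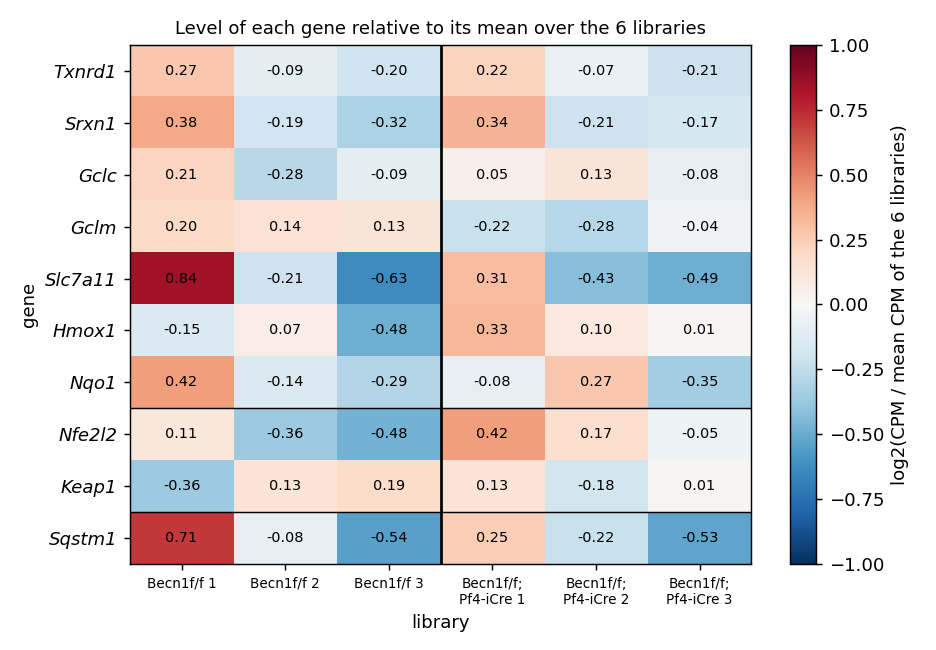
log2 of the CPM over the mean CPM of the 6 libraries, for the 7 targets, the regulators *Nfe2l2* and *Keap1*, and *Sqstm1* (rows) in each library (columns). *Slc7a11* and *Sqstm1* reach 0.84 and 0.71 in Becn1f/f library 1, and the first library of both genotypes is above 0 for *Txnrd1*, *Srxn1*, *Gclc*, *Slc7a11*, *Nfe2l2* and *Sqstm1*.

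Other genes of redox metabolism were read in 8 lists chosen by role, with 97 distinct genes, of which 89 were tested. Of these, 3 were DEGs (1 upward and 2 downward) and 5 had an unadjusted *P* under 0.05, which is 3.37% and 5.62% against 2.30% and 6.31% of all tested genes. Estimates were below 0 for 65 of the 89 genes, against 6677 of all 12256 tested, with a median log2 fold change of -0.07. Over 12069 genes, fold changes ran against GC content (Spearman -0.35) and with transcript length (Spearman 0.195). Whether the lean of the redox genes remains after correcting for these trends was not tested. Among 14 regulators and partners of NRF2, none was a DEG, and the median was -0.05. *Bach1*, the heme-sensing repressor that competes for antioxidant response elements at *Hmox1*, was the only member of this list with a *P* under 0.05, at 228, 166 and 142 CPM against 262, 260 and 201 CPM. The genotypes of *Bach1* overlapped through Becn1f/f library 1, as for *Nfe2l2*. On the log2 scale *Bach1* was higher by 0.43 (standard error 0.18, adjusted p = 0.74 in edgeR), and it is also a member of the heme list. *Sqstm1* had the highest level of this list, at 238 FPKM.

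In the list of glutathione synthesis and use, 16 of 20 genes were tested, 3 were higher and 13 lower, and none had a *P* under 0.05. *Gpx1*, the abundant glutathione peroxidase and the highest of the list at 961 FPKM, had a log2 fold change of -0.06. Of 14 thioredoxin and peroxiredoxin genes, 2 were higher and 12 lower. *Txnip*, which encodes an inhibitor of thioredoxin, was the DEG of this list and fell from 264 ± 110 to 173 ± 24.0 CPM (SD, n = 3 each). Its fitted log2 difference was -0.61 (adjusted p = 0.71 in edgeR). Becn1f/f library 1 had the highest *Txnip* value (386 CPM) and Becn1f/f library 2 (172 CPM) lay within the range of the other genotype (154 to 200 CPM). *Prdx5*, the highest of the list at 242 FPKM, had a log2 fold change of -0.05.

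NADPH keeps both the glutathione and the thioredoxin systems reduced. Of 10 tested NADPH-supplying genes, 8 were lower and 2 higher, none with a *P* under 0.05, and the median log2 fold change was -0.15. Their summed level was 3091 to 3213 CPM in Becn1f/f libraries and 2513 to 2930 CPM in libraries labelled Becn1f/f;Pf4-iCre. *Taldo1*, transaldolase of the pentose phosphate pathway and the highest of the list at 496 FPKM, had a log2 fold change of -0.14. Neutrophil markers were lower as well, with 13 of 14 below 0 and a median of -0.43. Of these, 1 was a DEG, against 0.938% of all tested genes in that direction, and 6 had an unadjusted *P* under 0.05, against 2.39%. The summed neutrophil level was 12281 to 17389 CPM in Becn1f/f libraries and 9535 to 12847 CPM in the other genotype, so these sums overlapped. Becn1f/f library 2 had the highest NADPH sum (3213 CPM) and the lowest neutrophil sum of its genotype (12281 CPM), though Becn1f/f NADPH sums spanned only 3091 to 3213 CPM. The part of neutrophil RNA in the NADPH list was not tested.

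Of 10 tested genes of heme and iron handling, 4 were higher and 6 lower. *Cd163*, the hemoglobin scavenger receptor of macrophages and also a member of the macrophage list, was the DEG of this list and rose from 4.91 ± 0.766 to 7.98 ± 0.704 CPM (SD, n = 3 each). Its log2 fold change was 0.70 (adjusted p = 0.41 in edgeR). The ferritin light chain gene *Ftl1*, the highest of all redox genes read here at 2543 FPKM, had a log2 fold change of -0.10, and ferritin genes have many processed copies that make their counts uncertain. Among 16 tested enzymes acting on quinones, carbonyls and xenobiotics, 5 were higher and 11 lower. The carboxylesterase gene *Ces1d* was the DEG of this list and fell from 3.59 ± 1.69 to 1.59 ± 0.577 CPM (SD, n = 3 each). Its fitted log2 difference was -1.16 (adjusted p = 0.51 in edgeR). *Osgin1*, an oxidative stress-responsive gene, had a log2 fold change of -0.56 (unadjusted *P* = 0.010, adjusted p = 0.50 in edgeR), just under the fold threshold. *Akr1a1*, the highest of that list at 300 FPKM, had a log2 fold change of 0.05. Of the 4 tested genes for superoxide and peroxide removal and of 6 NADPH oxidase subunits, none had a *P* under 0.05, and the highest of each, *Sod1* (461 FPKM) and *Cyba* (598 FPKM), had log2 fold changes of 0.13 and -0.03. Without Becn1f/f library 3, 5 of the redox genes were DEGs in place of 3, and 2 to 4 when each other library was left out.

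**Figure D5:**
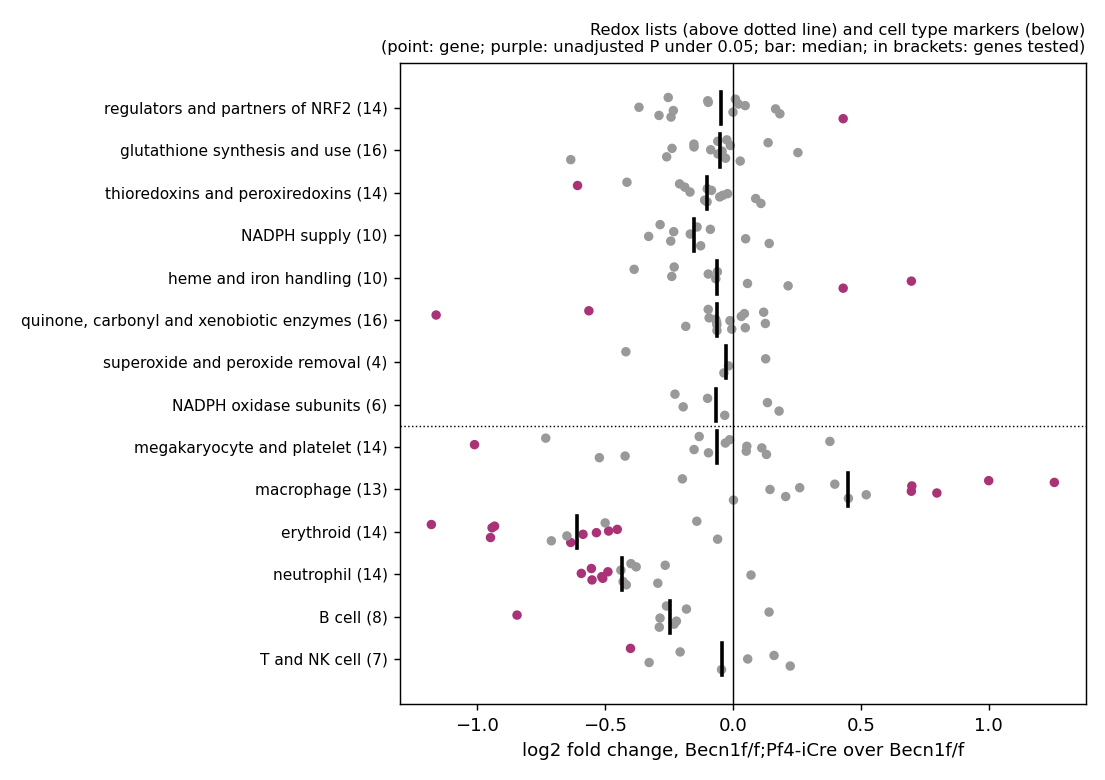
log2 fold change of each tested gene (points, purple where the unadjusted *P* was under 0.05) in the 8 redox lists, above the dotted line, and in the 6 lists of cell type markers, below it, with the median as a bar and the number of tested genes in brackets. The medians of the redox lists lie between -0.15 and -0.03, while those of macrophage and erythroid markers lie at 0.45 and -0.61.

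Among markers of other cells, 14 of 14 erythroid markers were lower, of which 6 were DEGs, with a median log2 fold change of -0.61, while 0.938% of all tested genes were DEGs in that direction and 6677 of 12256 were lower. The 8 B cell markers had a median of -0.25 with 1 DEG, downward, and the 7 tested T and NK cell markers had a median of -0.05 with none. The 14 tested MK and platelet markers had a median of -0.06, and *Pf4* was the DEG of that list, with a log2 fold change of -1.01 at levels under 7 CPM.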

How the data were processed

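RNA of sorted MKs was measured in 6 libraries, 3 per genotype, grouped by sample titles. The authors filtered the reads, used HISAT for mapping, and per gene deposited an estimated count and an FPKM value (scaled by the authors for length and library size). The submitters' processing notes name GRCm39, HISAT and Bowtie2, while versions and the counting settings are not given in the sources used here. Not used were 16 per-sample columns, 4 of them of a library matching no sample here, and columns of group means.

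Estimated counts were rounded, filtered by expression, TMM-scaled and tested in edgeR 4.0.16 (R 4.3.3) by quasi-likelihood, with genotype as the only factor and Benjamini-Hochberg adjustment over 12256 genes. DEG thresholds were those of the study's methods. Standard errors are the fold change over the root of F. The study used DESeq2 (1.42.0 here), which was an alternative beside other scalings, filters, limma 3.58.1 (voom, and log2(FPKM + 1) or log2(FPKM + 0.1)), a GC and length correction, a replicate block and leaving out libraries. Levels were compared between genes in FPKM. Counting error covers read sampling only.

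Named were all 9 genes, *Becn1*, *Sqstm1*, list genes with an unadjusted *P* under 0.05 or the highest FPKM, and the 3 genes most correlated with *Nfe2l2* and with *Hmox1*, of which 1 is not reported here; of the marker lists, only those beside a result are named. Members and lists were chosen with earlier results of these data known. Replicate numbers are shared between genotypes, but nothing says they mark shared animals. The edgeR fit and its intervals were tested on simulated counts, and the other steps were not. Annotation and promoter windows were GENCODE M21 and RefSeq on GRCm38, another build than the authors'.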

Additional observations from a re-analysis of the deposited data

How the results depend on the processing

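None of the 9 genes was a DEG under any alternative except that leaving out each library gave 0 to 1 (*Nfe2l2*, without Becn1f/f library 1). In the main fit, 2 passed with no fold threshold. Over all genes, 282 DEGs (167 upward, 115 downward) became 225 to 410 when each library was left out (133 to 267 and 92 to 208). limma on log2(FPKM + 1) gave 121 (88 and 33), with a mean FPKM of at least 1 it gave 137 (96 and 41), and log2(FPKM + 0.1) gave 431, of which 216 were downward. An adjusted p under 0.05 left 5, and no fold threshold gave 773. Without replicate 1 of both genotypes, an alternative chosen after seeing the data, there were 473 (308 upward). The redox lists had 3 DEGs, 1 with log2(FPKM + 1) with or without its filter, and 2 to 5 when each library was left out. The causes were not tested.

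The sign changed for 7 genes. The estimate of *Keap1* was 0.0787 with the GC and length correction, 0.0851 with that correction and the replicate block, and 0.0004 with limma-voom. When each library was left out, *Keap1* ranged from -0.16 to 0.0852, *Nqo1* from -0.23 to 0.19, *Gclc* from -0.033 to 0.22, *Txnrd1* from -0.15 to 0.14, *Slc7a11* from -0.60 to 0.26, *Srxn1* from -0.18 to 0.27 and *Sqstm1* from -0.50 to 0.17. Without replicate 1 of both genotypes, *Nqo1* was at 0.21 and *Txnrd1* at 0.0094. *Nfe2l2*, *Hmox1* and *Gclm* kept their direction in all alternatives, at 0.28 to 0.61, 0.19 to 0.46 and -0.45 to -0.28. With the GC and length correction, the edgeR *P* was 0.045 for *Nfe2l2*, 0.012 for *Hmox1* and 0.0053 for *Gclm* (adjusted p from 0.35 to 0.59). With the replicate block added, it was 0.0013, 0.0025 and 0.0087 in that order and 0.017 for *Slc7a11* (adjusted p from 0.14 to 0.34). None of these was a DEG. Over 12069 genes the uncorrected fold changes ran against GC content (Spearman -0.35, across genes, which are not replicates). As CPM per kb of an annotated transcript, the levels of *Hmox1*, *Gclm* and *Txnrd1* moved to 29.9, 5.38 and 51.0.

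Same-numbered libraries did not deviate together (correlations of 0.07, -0.28 and 0.20), so the numbers were not taken as pairs. The replicate block gave 296 DEGs and none of the 9 genes, with *P* values of 0.016 for *Nfe2l2* and 0.063 for *Gclm* in edgeR. It lowered the standard error of *Slc7a11* from 0.32 to 0.17 and that of *Sqstm1* from 0.28 to 0.17. Not every library correlated best with its own number. *Nqo1* had the fewest counts of the 9 genes.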
